A study of Mus musculus with 18 samples.

Results

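The genes described here serve protein folding in the endoplasmic reticulum (ER), the response to ER stress, and ER-associated degradation. They were taken by symbol from the deposited table, and all 39 members of the list were found among 14451 rows, of which 14449 could be tested. The study sequenced the polyadenylated RNA of whole livers from wild-type (WT) male mice 8 to 9 weeks old, kept in 12 h of light and 12 h of dark without further treatment. Livers were taken at zeitgeber times (ZT, hours after lights on) 1, 5, 9, 13, 17 and 21. At each time 5 mice were kept and the 3 with the best RNA were sequenced, so that the 18 livers came from as many animals. The strain is not given in the sources used here. The question was which genes change over the day, and when.

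Proteins that enter the ER are folded by the HSP70 chaperone BiP and its cochaperones, by the lectins calreticulin and calnexin, and by disulfide isomerases. Proteins that fail to fold are moved back to the cytosol and destroyed by the proteasome. When unfolded proteins build up, the sensors IRE1, PERK and ATF6 start the unfolded protein response, in which spliced XBP1, ATF4 and cleaved ATF6 switch on genes of folding and degradation. The hepatocyte secretes most plasma proteins and carries a large ER.

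The livers held 10268168 to 23242842 estimated reads (median 12078875). Values are estimated reads plus 0.5, per 1000000 reads of a library size set by the authors. They are not divided by gene length, so the levels of different genes are not compared. Over 17 clock genes, 17 of the 18 livers were nearest to the mean of their own ZT. The deepest liver, ZT5 replicate 3, was nearest to ZT9, and counts without it are given below. All 10 hepatocyte markers were present, with a summed value of 86082 to 91165 at ZT9 and 106080 to 119010 at ZT17. Most of this sum was Alb (50493.1 to 78543.8 over the 18 livers). Of the 10 genes, 5 passed the time of day test and 6 the 24 h test, against 26.3% and 37.0% of all genes. Of 8 B and plasma cell markers 5 were in the table, and their sum was 12.7 to 26.6 at ZT1, 12.3 to 15.999 at ZT5, 7.12 to 13.1 at ZT9, 3.82 to 10.3 at ZT13, 6.35 to 9.23 at ZT17 and 9.46 to 13.3 at ZT21. Of 14 pancreatic acinar markers, genes of another cell with a large ER, 2 were in the table, with a sum of 6.04 to 15.3. Nearly all of this sum was Cela1 (5.99 to 15.3). Ctrb1 had reads only in ZT17 replicate 1, at a value of 1.13. The sums of 7 Kupffer cell markers (110 to 291) and of 7 sinusoidal endothelial markers (95.4 to 249.9) had their highest liver at ZT5. The single lowest liver was at ZT17, where the sums spread widely (110 to 248 and 95.4 to 188.5). At ZT21 they were 110 to 167 and 102 to 161. Of these genes, 4 and 3 passed the 24 h test, against 37.0% of all genes. The part of these differences in the results below was not tested. In bulk tissue, fewer cells of a type and less RNA per cell cannot be told apart.

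Before the values, the promoters of some of these genes are shown, because the best known control elements of the response lie close to the start. The windows come from RefSeq on GRCm38.p6 and run from 250 bases before to 50 bases after each start. They were found for 34 members, 2 of them under another symbol, while Atf6, Ppp1r15b, Hyou1, Manf and Derl1 had no entry. On both strands, 5 motifs were searched. The ER stress response element ERSE (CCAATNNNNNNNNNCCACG) is bound by ATF6 with NF-Y, and ERSE-II (ATTGGNCCACG) holds the same half-sites closer together. UPRE (TGACGTGG) is bound by XBP1, CARE (TGATGNAA) by ATF4 with C/EBP factors, and the E-box CACGTG by CLOCK and BMAL1. ERSE and ERSE-II end in letters that UPRE also holds on its other strand, but no matches in the members shared bases. The first lines give the 250 bases before the start of Hspa5, Creld2, Syvn1 and Herpud1, with the fixed letters of ERSE, ERSE-II or CARE in capitals. In Creld2 the ERSE lies on the other strand and reads backwards in the line, as does the CARE of Herpud1. The GENCODE gene model of Hspa5 takes an earlier start than RefSeq and begins inside the window shown.
Hspa5 (chr2:34771840-34772089, plus strand): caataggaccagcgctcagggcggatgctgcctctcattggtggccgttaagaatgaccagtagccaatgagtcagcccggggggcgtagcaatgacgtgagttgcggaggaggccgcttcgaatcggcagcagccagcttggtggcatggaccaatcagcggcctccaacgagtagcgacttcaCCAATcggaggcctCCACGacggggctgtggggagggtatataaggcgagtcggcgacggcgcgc
Creld2 (chr15:88819396-88819645, plus strand): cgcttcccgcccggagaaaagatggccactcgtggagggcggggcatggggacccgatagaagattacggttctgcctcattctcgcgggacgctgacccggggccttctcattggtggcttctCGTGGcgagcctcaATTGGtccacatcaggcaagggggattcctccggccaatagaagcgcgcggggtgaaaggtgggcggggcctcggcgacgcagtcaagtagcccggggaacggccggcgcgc
Syvn1 (chr19:6046326-6046575, plus strand): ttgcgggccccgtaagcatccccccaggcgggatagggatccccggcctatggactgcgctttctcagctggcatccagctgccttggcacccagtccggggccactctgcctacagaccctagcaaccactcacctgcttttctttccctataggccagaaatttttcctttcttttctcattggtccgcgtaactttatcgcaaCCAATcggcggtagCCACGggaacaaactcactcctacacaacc
Herpud1 (chr8:94386179-94386428, plus strand): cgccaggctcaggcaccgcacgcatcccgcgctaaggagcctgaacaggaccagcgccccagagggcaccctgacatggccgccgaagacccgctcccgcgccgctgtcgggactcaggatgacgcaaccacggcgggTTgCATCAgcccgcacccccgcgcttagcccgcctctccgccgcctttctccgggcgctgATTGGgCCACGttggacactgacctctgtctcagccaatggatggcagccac
The next lines give the elements alone in other members, each in the reading direction of the motif.
Hsp90b1 ERSE (chr10:86705638-86705656): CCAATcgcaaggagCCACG
Hsp90b1 ERSE (chr10:86705533-86705551): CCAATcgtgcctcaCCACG
Calr ERSE (chr8:84847075-84847093): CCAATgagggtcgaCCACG
Canx ERSE (chr11:50325800-50325818): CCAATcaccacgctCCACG
Pdia6 ERSE (chr12:17266491-17266509): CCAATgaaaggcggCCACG
Ero1lb ERSE (chr13:12565682-12565700): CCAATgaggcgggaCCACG
Dnajc3 ERSE (chr14:118937827-118937845): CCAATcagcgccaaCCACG
Derl3 ERSE (chr10:75893242-75893260): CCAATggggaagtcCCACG
Dnajb11 ERSE-II (chr16:22857852-22857862): ATTGGcCCACG
Trib3 CARE (chr2:152344039-152344046): TGATGtAA

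ERSE was found in 10 of the 34 members with a window (29.4%), against 39 of 32851 windows (0.119%) over all promoters. Members were counted as genes, and 1 of them had 2 windows. The list was chosen for the response that ERSE is named after, so this excess is not a test. The 10 genes were Hspa5, Hsp90b1, Calr, Canx, Pdia6, Ero1lb, Dnajc3, Creld2, Syvn1 and Derl3, and Hsp90b1 held 2 copies. ERSE-II was found in Herpud1 and Dnajb11, against 12 promoters (0.0365%) in all. CARE was found in Trib3, Chac1 and Herpud1 (3.97% of all promoters), UPRE in Vcp (0.676%), and the E-box in Atf6b, Calr, Derl3 and Dnajb9 (7.15%). A match describes these letters and is neither a proven site nor a cause of a change.

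The data showed that most of the folding genes were low in the middle of the light phase, at ZT5, and high in the middle of the dark phase, at ZT17. By the limma F test over the 6 ZT means of log2(value + 1), 26 of the 39 members (66.7%) changed with the time of day at an adjusted P-value below 0.05, against 26.3% of all genes. The 24 h term, a cosine and sine of 24 h fitted beside a pair of 12 h, was also called in 26 members, against 37.0% of all genes. The rank test JTK, with periods of 20 to 28 h, called 16 members (41.0%), against 14.1%. Among genes with a mean value of at least 10, a level chosen after the values were seen, the time of day test called 23 of 34 members (67.6%) and 35.1% of all genes, and the 24 h term called 23 members and 48.7% of all genes. The median 24 h amplitude, the distance from the middle of the wave to its peak on the log2 scale, was 0.26 in the members and 0.16 in all genes. Without ZT5 replicate 3 the 3 tests called 23, 25 and 11 members. Without ZT5 replicate 2 JTK called 10.

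**Figure D1:**
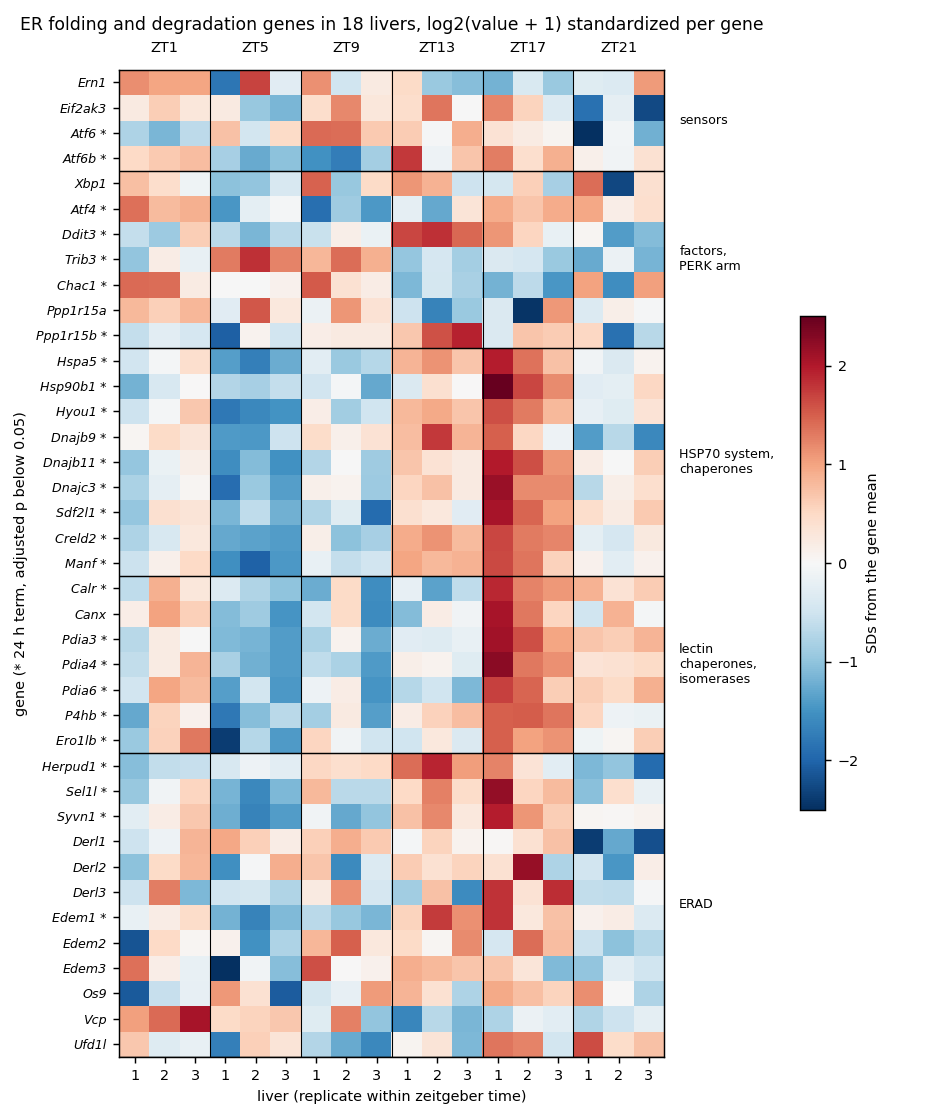
Heat map of the 39 genes (lines, by role) in the 18 livers (columns, 3 per ZT), coloured by log2(value + 1) in SDs from the mean of each gene. Stars mark the 26 genes with a called 24 h term, and the chaperone and isomerase blocks are blue at ZT5 and red at ZT17.

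The peaks of the 24 h term were not spread evenly. Of the 26 called members, 17 peaked at or after ZT16 and before ZT20, which is 43.6% of the 39 members against 7.25% of all genes. A wider window from ZT12 to ZT20 held 21 members (53.8%), against 12.8% of all genes. The other 5 were Chac1 at ZT 3.31 ± 1.04 h (SE), Trib3 at 6.47 ± 0.43 h, Atf6 at 10.34 ± 0.81 h, Herpud1 at 11.95 ± 0.43 h and Atf4 at 20.98 ± 0.64 h. In the order of peaks, neighbours from Herpud1 to Ddit3 (13.78 h) and from Sel1l (15.88 h) to Atf4 lay closer than the sum of their SEs. The order within each such pair of neighbours is not resolved. All 3 ZT17 livers lay above all 3 ZT5 livers in 23 members (59.0%), against 18.3% of all genes, and below them in Trib3, Chac1 and Vcp (7.69%), against 18.9%. This pair of times was chosen after the values were seen, and the counts describe it.

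**Figure D2:**
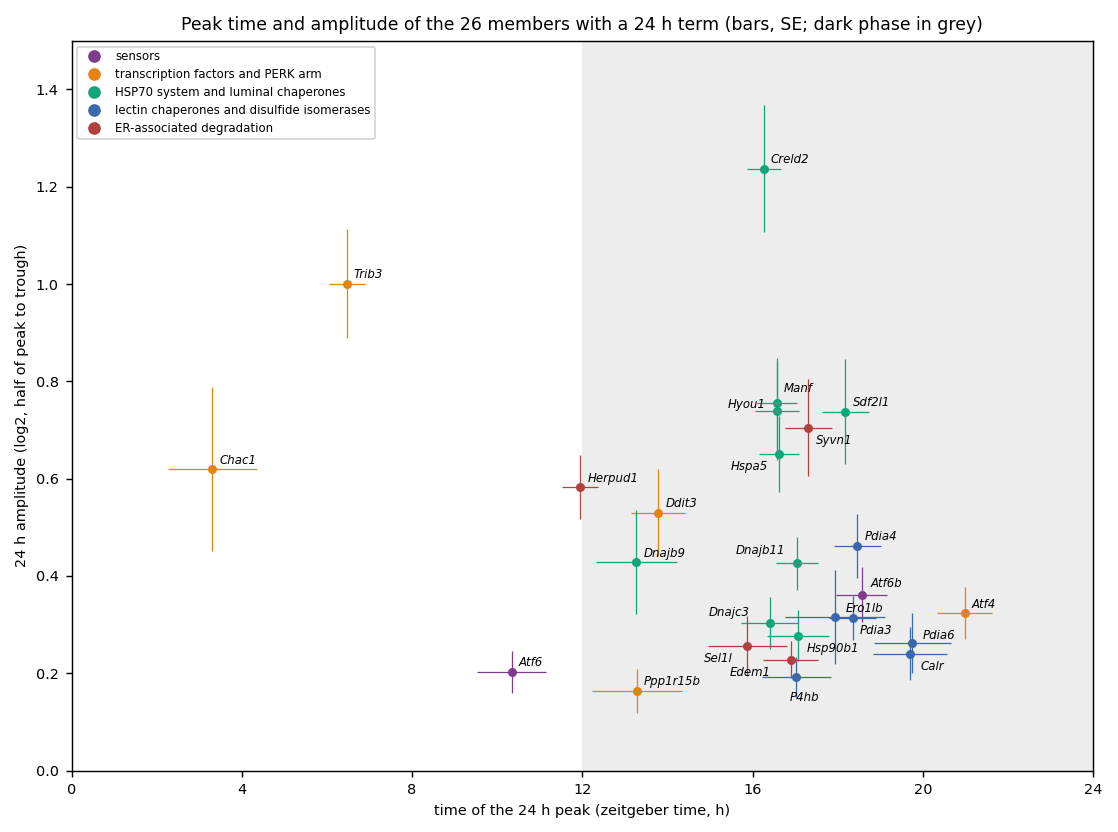
Time of the 24 h peak (x axis, ZT in h) against the 24 h amplitude (y axis, log2) of the 26 genes with a called 24 h term, with SEs as bars and the dark phase in grey. Most points lie between ZT16 and ZT20, Creld2 is the highest at 1.24, and Chac1, Trib3 and Atf6 lie in the light phase. Herpud1 lies at the end of the light phase, with a bar that crosses into the dark phase.

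The HSP70 system and the other luminal chaperones changed as a whole group. All 9 genes passed both limma tests, where 26.3% and 37.0% of all genes did. All 9 peaked in the dark phase between ZT12 and ZT20 (12.8% of all genes), and JTK called 8 (14.1% of all genes). The median 24 h amplitude was 0.65. Hspa5 (ENSMUSG00000026864, GRCm38 chr2:34771970-34777547) encodes BiP, the central chaperone of the ER lumen. Its values were 764, 904 and 1084 at ZT1, 544, 477 and 572 at ZT5, 835, 643 and 698 at ZT9, 1275, 1418 and 1201 at ZT13, 1960.0, 1548 and 1221 at ZT17, and 891, 802 and 951 at ZT21. The 3 livers of ZT5 were the lowest of all and the 6 of ZT13 and ZT17 the highest, with no overlap with the other times. The mean rose 2.97-fold from ZT5 (531 ± 48.4, SD, n = 3) to ZT17 (1576 ± 370.2, n = 3), with an adjusted P-value of 6.31e-05 for time of day (limma) and an amplitude of 0.65 ± 0.08 (SE).

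Creld2 (chr15:88819646-88826683), an ER protein rich in cysteines that takes part in disulfide exchange, had the largest ratio between times in the group. It was at 22.7, 29.9 and 48.5 at ZT1, 15.7, 14.9 and 14.2 at ZT5, 44.4, 18.8 and 21.8 at ZT9, 77.5, 89.7 and 70.5 at ZT13, 131, 102 and 95.8 at ZT17, and 33.5, 29.4 and 47.8 at ZT21. The ZT17 livers were above every other liver, the ZT13 livers came next, and the ZT5 livers were below all others. The ratio of the ZT17 to the ZT5 mean was 7.35 (adjusted P-value 4.25e-05, limma), and the fitted 24 h wave spanned 5.56-fold from trough to peak.

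Hyou1 (chr9:44379490-44392369), the large HSP70 relative that reloads BiP with nucleotide, was at 165, 202 and 279.5 at ZT1, 93.0, 101 and 106 at ZT5, 224, 141 and 166 at ZT9, 298, 317 and 283 at ZT13, 424, 369 and 298 at ZT17, and 188, 180.4 and 241 at ZT21. Manf (chr9:106838312-106891979), a small protein that binds BiP, was at 76.4, 103 and 122 at ZT1, 48.6, 38.6 and 50.9 at ZT5, 89.8, 74.2 and 78.3 at ZT9, 152, 141 and 144 at ZT13, 205, 178 and 126 at ZT17, and 102, 86.2 and 102 at ZT21. Both genes had the pattern of Hspa5, with the ZT5 livers below all others and the ZT13 and ZT17 livers above all others. Hyou1 differed 3.64-fold between ZT17 and ZT5 (adjusted P-value 8.32e-05, limma). Manf differed 3.69-fold (adjusted P-value 3.32e-05), which was the smallest P-value among the members.

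Of the DnaJ cochaperones, which hand substrates to BiP, Dnajb11 (chr16:22857845-22879634) was at 77.3, 93.9 and 101 at ZT1, 67.1, 75.1 and 67.7 at ZT5, 81.8, 97.3 and 78.9 at ZT9, 115, 106 and 103 at ZT13, 156, 143 and 127 at ZT17, and 102, 97.2 and 113 at ZT21. Sdf2l1 (chr16:17130138-17132383), its partner in the lumen, was at 21.5, 39.9 and 38.8 at ZT1, 19.8, 24.997 and 19.3 at ZT5, 23.7, 29.1 and 13.7 at ZT9, 39.9, 37.6 and 29.4 at ZT13, 84.3, 64.4 and 52.5 at ZT17, and 40.7, 36.7 and 44.9 at ZT21. In both the ZT17 livers were the highest of all, while ZT13 overlapped ZT1 or ZT21. The ratios of ZT17 to ZT5 were 2.03 for Dnajb11 (adjusted P-value 0.000279, limma) and 3.14 for Sdf2l1 (0.00213). Dnajb9 (chr12:44205559-44210326), the cochaperone ERdj4 that also acts in degradation, was earlier, with 69.6, 81.0 and 76.2 at ZT1, 41.0, 40.6 and 56.7 at ZT5, 80.7, 71.3 and 77.8 at ZT9, 89.8, 129 and 93.0 at ZT13, 117, 82.5 and 65.3 at ZT17, and 41.2, 53.2 and 38.2 at ZT21. Its ZT5 and ZT21 livers were the lowest 6 of all, and the adjusted P-value for time of day was 0.00108 (limma), while the JTK q-value of 0.104 missed the threshold. Hsp90b1, the ER member of the HSP90 family, and Dnajc3, a cochaperone that also inhibits PERK, differed 1.61-fold and 1.71-fold between ZT17 and ZT5, and in both all ZT17 livers were above all other livers.

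**Figure D3:**
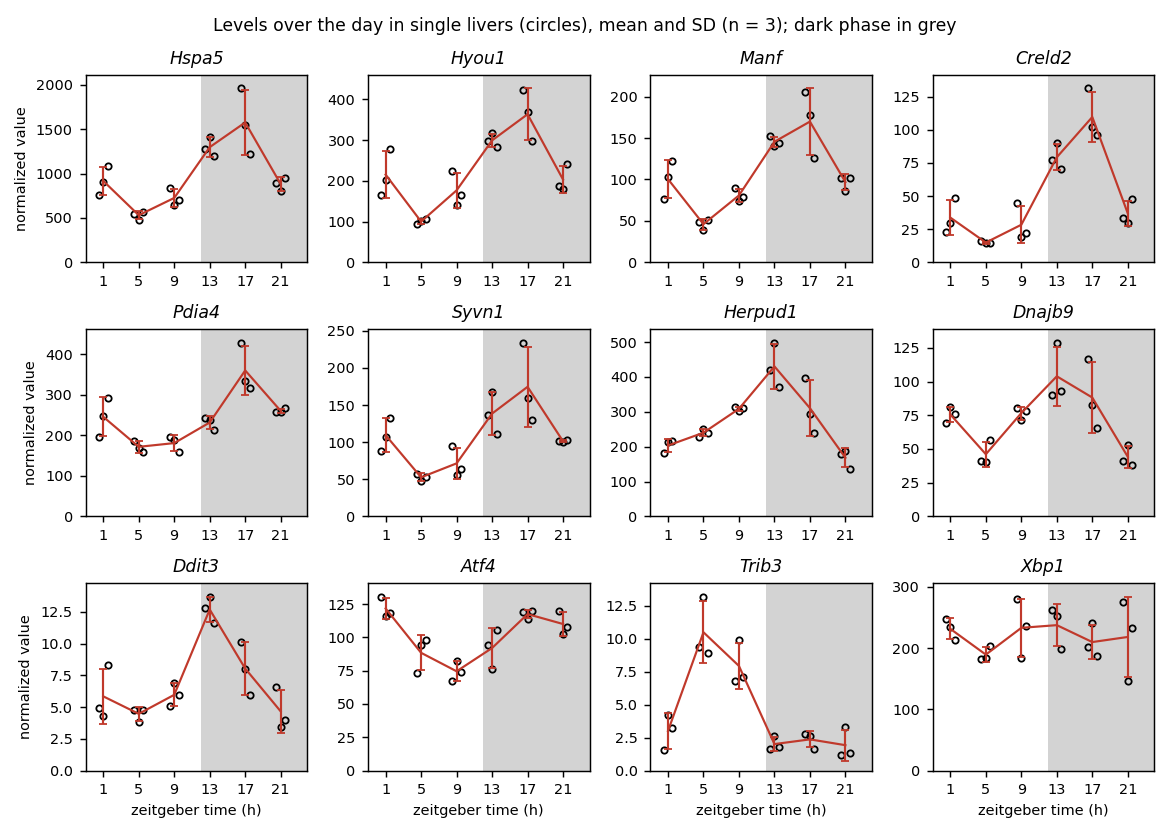
Normalized value (y axis, from 0) over zeitgeber time (x axis, h) for 12 genes, with circles for single livers and lines for the mean with SD (n = 3), and the dark phase in grey. Hspa5, Hyou1, Manf, Creld2, Pdia4 and Syvn1 are lowest at ZT5 and highest at ZT17, Herpud1, Dnajb9 and Ddit3 are highest at ZT13, Trib3 is highest at ZT5, and Xbp1 has overlapping times.

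Lectin chaperones and disulfide isomerases were highest at ZT17. Of 7 genes, 6 passed the time of day and 24 h tests and 3 passed JTK, with a median amplitude of 0.26. The shares of all genes were 26.3%, 37.0% and 14.1%. Pdia4 (chr6:47796141-47813430), a disulfide isomerase with several thioredoxin domains, was at 197, 247 and 294 at ZT1, 187, 169 and 159 at ZT5, 197, 188 and 158 at ZT9, 242, 239 and 215 at ZT13, 429, 335 and 317 at ZT17, and 257, 259 and 266 at ZT21. Pdia3 (chr2:121413775-121438687), the isomerase that works with calreticulin and calnexin, was at 441, 518 and 498 at ZT1, 410.0, 406 and 389 at ZT5, 433, 508 and 401 at ZT9, 475, 471 and 483 at ZT13, 726, 667 and 597 at ZT17, and 566, 558 and 581 at ZT21. For both the ZT17 livers were above all others, and at ZT13 the values still overlapped those of ZT1. Pdia4 differed 2.10-fold between ZT17 and ZT5 (adjusted P-value 0.00053, limma) and Pdia3 1.65-fold (0.000807).

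The other 5 genes of the group had their highest mean at ZT17 as well. Ero1lb, the oxidase that restores disulfide isomerases, differed 1.96-fold between its highest and lowest time, Pdia6 1.52-fold, Calr 1.41-fold, and P4hb, the founding isomerase, 1.36-fold, and each passed the time of day test. The call of P4hb was kept in 13 of 18 fits without 1 liver, and the 24 h call of Ero1lb in 7 of 18 and under 2 of 5 other alternatives. Canx, the membrane-bound lectin, differed 1.23-fold and did not pass (adjusted P-value 0.129, limma). The ERSE shown above for Canx was in the promoter of a gene with no called change, as was that of Derl3. Of the 10 genes with ERSE, 8 had a called 24 h term and all 10 had their ZT17 livers above their ZT5 livers. Of the 12 with ERSE or ERSE-II, 10 had a called 24 h term and 11 had that separation. Of the 22 genes with a window that held neither ERSE nor ERSE-II, the counts were 12 and 10. Over all genes the shares were 37.0% and 18.3%. The 5 members without a window, Hyou1 and Manf among them, are in none of these counts. The median amplitude was 0.29 with ERSE, 0.31 with ERSE or ERSE-II and 0.24 with neither, differences that were not tested.

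Of the 12 genes of ER-associated degradation, the time of day and 24 h tests each called 4, namely Herpud1, Syvn1, Sel1l and Edem1. This share of 33.3% was near those of all genes (26.3% and 37.0%), and the median amplitude was 0.14, under that of all genes. Syvn1 (chr19:6046576-6053712) encodes HRD1, the ubiquitin ligase at the centre of the channel. It was at 87.8, 107 and 133 at ZT1, 57.6, 47.2 and 53.2 at ZT5, 94.9, 55.9 and 63.6 at ZT9, 137, 168 and 111 at ZT13, 234, 159.8 and 129.8 at ZT17, and 101, 99.8 and 103 at ZT21. The ZT5 livers overlapped those of ZT9 and the ZT17 livers those of ZT13 and ZT1, and the ratio of ZT17 to ZT5 was 3.317 (adjusted P-value 0.000469, limma). Herpud1 (chr8:94386438-94395377), a membrane protein that brings substrates to HRD1, was at 182, 212 and 216 at ZT1, 229, 251 and 241 at ZT5, 313, 302 and 311 at ZT9, 419.6, 499 and 373 at ZT13, 398, 294 and 240.1 at ZT17, and 179.6, 188 and 137 at ZT21. At ZT5, ZT9 and ZT13 all its livers lay above those of the time before, though none of these steps passed the test, and the mean was 2.56-fold higher at ZT13 than at ZT21 (adjusted P-value 0.000241, limma). Its promoter, shown above, held both an ERSE-II and a CARE.

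Sel1l, the adaptor of HRD1, was 1.57-fold higher at ZT17 than at ZT5 (adjusted P-value 0.0347, limma), and the call was kept in 11 of 18 fits that left out 1 liver. Edem1, a lectin that picks glycoproteins for degradation, was 1.45-fold higher at ZT13 than at ZT5 (0.00331). The other 8 did not pass the time of day test, and all but Derl3 differed by 1.11-fold to 1.30-fold between their highest and lowest time. These were the channel proteins Derl1 and Derl2, the mannosidase-like Edem2 and Edem3, the lectin Os9, and Vcp and Ufd1l, which pull substrates out of the membrane. Derl3, the third derlin, was 2.77-fold higher at ZT17 than at ZT5 with an adjusted P-value of 0.137. Its values ran from 1.09 to 7.16, and 12 estimated reads stood behind the lowest.

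Of the 4 sensors, 3 passed the time of day test, 2 the 24 h test and 1 JTK, with a median 24 h amplitude of 0.21. Over all genes, the shares of these tests were 26.3%, 37.0% and 14.1%, and 4 genes are too few to set against them. Atf6b (chr17:34647146-34655074), a relative of ATF6 anchored in the ER membrane, was at 22.1, 23.1 and 23.8 at ZT1, 15.5, 13.8 and 14.7 at ZT5, 12.9, 12.2 and 15.5 at ZT9, 30.9, 18.8 and 23.3 at ZT13, 27.3, 21.7 and 24.5 at ZT17, and 20.1, 19.01 and 21.4 at ZT21. The 6 livers of ZT5 and ZT9 were below all others, and the ratio of the ZT17 to the ZT9 mean was 1.81 (adjusted P-value 0.00108, limma). Atf6 (chr1:170704674-170867771), which is cut in the Golgi to free a transcription factor, had its high times earlier, at 65.8, 62.7 and 66.8 at ZT1, 79.8, 68.5 and 77.3 at ZT5, 87.3, 87.0 and 79.1 at ZT9, 78.9, 72.4 and 81.6 at ZT13, 76.2, 74.6 and 73.3 at ZT17, and 52.4, 72.1 and 62.3 at ZT21. The ZT9 livers were above those of ZT1, ZT17 and ZT21, and the means of ZT9 and ZT21 differed 1.36-fold (adjusted P-value 0.0326, limma), a call kept in 12 of 18 fits without 1 liver.

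Eif2ak3 (chr6:70844515-70905245) encodes PERK, the kinase that slows translation. It was at 17.9, 19.6 and 18.1 at ZT1, 17.8, 13.3 and 12.7 at ZT5, 18.8, 22.6 and 18.1 at ZT9, 18.8, 23.4 and 16.9 at ZT13, 22.7, 19.3 and 15.5 at ZT17, and 10.6, 15.98 and 9.56 at ZT21. The ZT21 livers were below those of ZT1, ZT9 and ZT13, and the time of day test gave an adjusted P-value of 0.0345 (limma), which stayed below 0.05 in 10 of 18 fits without 1 liver. The 24 h term of Eif2ak3 was not called (0.156), and that of Atf6 was (0.00532). Ern1 (chr11:106394650-106487852), which encodes the RNase IRE1 that splices Xbp1, was at 98.3, 95.6 and 95.4 at ZT1, 59.9, 107 and 77.4 at ZT5, 98.2, 74.7 and 84.2 at ZT9, 87.8, 69.5 and 67.9 at ZT13, 66.6, 76.1 and 69.4 at ZT17, and 77.0, 76.7 and 96.8 at ZT21. Its times overlapped except that ZT1 lay above ZT13 and ZT17 and ZT21 above ZT17, and neither test called it (adjusted P-values 0.333 and 0.196, limma).

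Among the transcription factors and the PERK arm, single genes peaked at different times. Xbp1 (chr11:5520659-5525893), whose spliced form drives folding and degradation genes, was at 247, 234 and 213 at ZT1, 182, 183 and 203 at ZT5, 279.7, 184 and 236 at ZT9, 262, 252 and 199 at ZT13, 201, 241 and 188 at ZT17, and 276, 146 and 233 at ZT21. Its highest and lowest times overlapped and no change was called (adjusted P-value 0.689, limma). The table gives 1 value per gene, so spliced and unspliced Xbp1 cannot be told apart. Atf4 (chr15:80255184-80257541), the factor whose translation PERK raises, was at 131, 116 and 118 at ZT1, 73.3, 94.2 and 97.8 at ZT5, 67.4, 82.6 and 73.7 at ZT9, 94.4, 76.0 and 106 at ZT13, 119, 114 and 119.5 at ZT17, and 120.1, 102 and 108 at ZT21. The livers of ZT17, ZT21 and ZT1 lay above those of ZT5 and ZT9, and the means of ZT1 and ZT9 differed 1.63-fold (adjusted P-value 0.00426, limma).

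Ddit3 (chr10:127290774-127296288) encodes CHOP, a factor of prolonged stress. It was at 4.95, 4.28 and 8.30 at ZT1, 4.78, 3.85 and 4.77 at ZT5, 5.05, 6.86 and 5.98 at ZT9, 12.8, 13.6 and 11.6 at ZT13, 10.2, 8.02 and 5.93 at ZT17, and 6.57, 3.44 and 3.98 at ZT21. The ZT13 livers were above every other liver, and the ratio of ZT13 to ZT5 was 2.84 (adjusted P-value 0.0026, limma; JTK q-value 0.0844). Trib3 (chr2:152337422-152344032), a pseudokinase switched on by ATF4 and CHOP, was at 1.56, 4.23 and 3.20 at ZT1, 9.36, 13.2 and 8.89 at ZT5, 6.77, 9.92 and 7.07 at ZT9, 1.60, 2.63 and 1.78 at ZT13, 2.78, 2.64 and 1.66 at ZT17, and 1.17, 3.27 and 1.32 at ZT21. All 6 livers of ZT5 and ZT9 were above all others, at the times when Hspa5 was lowest, and the means of ZT5 and ZT21 differed 5.45-fold (adjusted P-value 0.000155, limma; JTK q-value 0.104). The lowest value of Trib3 rested on 14 estimated reads, and its time of day call was kept in 18 of 18 fits without 1 liver.

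Chac1, a glutathione-degrading enzyme and another target of ATF4, was between 2.34 and 5.16 at ZT1 and between 0.441 and 1.17 at ZT17. Its adjusted P-value of 0.0457 (limma) was kept below 0.05 in only 5 of 18 fits without 1 liver, its ZT21 livers ran from 0.373 to 4.05, and its lowest value rested on 4 estimated reads. At such low values, those of Trib3 among them, the log2(value + 1) scale understates a change. Ppp1r15a (chr7:45522916-45526268) encodes GADD34, which ends the action of PERK. It was at 11.7, 11.1 and 11.7 at ZT1, 9.12, 13.8 and 10.3 at ZT5, 9.41, 12.4 and 10.5 at ZT9, 8.65, 6.60 and 7.86 at ZT13, 8.95, 5.49 and 12.4 at ZT17, and 9.00, 10.1 and 9.67 at ZT21. The ZT13 livers lay below those of ZT1, ZT5, ZT9 and ZT21, the ZT17 livers spanned nearly the whole range, and no test called it (adjusted P-value 0.229 for time of day, limma). Its constitutive relative Ppp1r15b differed 1.30-fold between ZT13 and ZT5, with an adjusted P-value of 0.104 for time of day and 0.0272 for the 24 h term.

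Steps between neighbouring times placed the changes within the day. From ZT1 to ZT5, 6 members fell (15.4%, against 2.36% of all genes), namely Hspa5, Hyou1, Creld2, Manf, Syvn1 and Atf6b. The change of Manf was -1.09 ± 0.18 (log2, SE; adjusted P-value 0.00208, limma) and that of Hyou1 -1.07 ± 0.19 (0.00447). Trib3 rose, by 1.56 ± 0.28 (0.00387), where 2.53% of all genes did. At an unadjusted P-value below 0.05, 19 members differed (48.7%), against 19.7% of all genes. The 7 calls of this step became 11, 4 and 3 without ZT1 replicate 1, 2 and 3. From ZT5 to ZT9 only Manf passed, with a rise of 0.80 ± 0.18 (0.0381), against 0.637% of all genes that rose and 0.900% that fell. At an unadjusted P-value below 0.05, 12 members differed in this step (30.8%), against 12.2% of all genes. The call of Manf was lost without ZT1 replicate 2, ZT13 replicate 2 or 3, ZT9 replicate 1 or 3 or any ZT5 liver, and 2 members passed without ZT1 replicate 1 or 3 or ZT17 replicate 1.

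The step from ZT9 to ZT13 holds the change from light to dark. Here 8 members rose (20.5%, against 4.64% of all genes), namely Hspa5, Hyou1, Creld2, Manf, Syvn1, Atf6b, Ddit3 and Edem1. The rise of Creld2 was 1.55 ± 0.29 (log2, SE; adjusted P-value 0.0038, limma), that of Ddit3 0.98 ± 0.22 (0.0132) and that of Hspa5 0.84 ± 0.16 (0.00501). Trib3 fell by 1.57 ± 0.28 (0.00287), where 4.60% of all genes fell. At an unadjusted P-value below 0.05, 16 members differed (41.0%), against 24.7% of all genes. The count of 9 calls stayed between 7 and 10 without any 1 liver.

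From ZT13 to ZT17, Pdia3 rose by 0.47 ± 0.10 (adjusted P-value 0.0316, limma) and Pdia4 by 0.62 ± 0.14 (0.0448), where 0.671% of all genes rose and 0.533% fell. These calls rested on single livers, since no member passed without any 1 ZT13 liver or without ZT17 replicate 1 or 2, and 1 passed without ZT1 replicate 2, ZT5 replicate 2 or 3, ZT17 replicate 3 or any ZT21 liver. At an unadjusted P-value below 0.05, 14 members differed (35.9%), against 14.9% of all genes. From ZT17 to ZT21, 6 members fell (15.4%, against 0.568% of all genes), with changes of -0.78 in Manf, -0.81 in Hspa5, -0.83 in Hyou1, -0.86 in Herpud1, -0.95 in Dnajb9 and -1.56 in Creld2. No member rose by the same limma test, against 0.941% of all genes, and 21 differed at an unadjusted P-value below 0.05 (53.8%), against 14.5%. Without ZT17 replicate 1 none of these passed, and without ZT17 replicate 2, ZT21 replicate 1 and ZT21 replicate 3 the counts were 2, 1 and 1. From ZT21 to ZT1, across lights on, limma called 0 members, against 0.0277% of all genes that rose and 0.104% that fell (0.131% in either direction), and 5 differed at an unadjusted P-value below 0.05 (12.8%), against 9.18%.

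**Figure D4:**
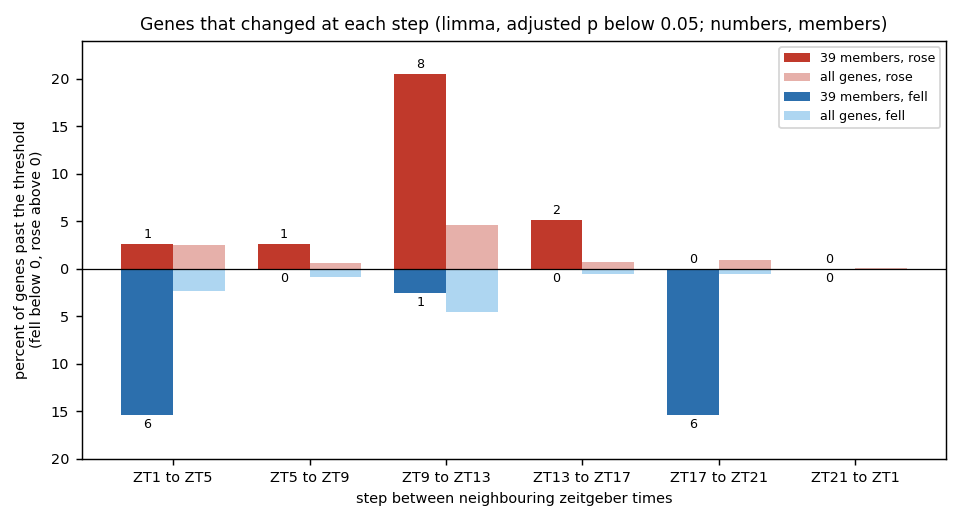
Percent of the 39 genes (dark bars, with their number) and of all 14449 genes (light bars) that rose (above 0) or fell (below 0) at each step between neighbouring ZT, by limma at an adjusted P-value below 0.05. The bars of genes that fell are longest from ZT1 to ZT5 and from ZT17 to ZT21 (6 genes each), and that of genes that rose from ZT9 to ZT13 (8 genes), with chaperones, sensors, factors and degradation genes among them but no lectin chaperone or isomerase.

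The liver ZT17 replicate 1 was the highest of the 18 in 17 of the 39 members (43.6%), against 6.12% of all genes. Without it the time of day test called 22 members and the 24 h term 25. The amplitude of Hspa5 ran from 0.58 to 0.69 over the 18 fits without 1 liver and that of Creld2 from 1.17 to 1.32. The depth of this liver was 15204349 estimated reads, within the range of the others. Its hepatocyte sum of 119010 was the highest of the 18, and most of that sum was the single gene Alb (78543.8). It was the only liver with reads of the acinar marker Ctrb1 (1.13), while its acinar sum of 8.71 was within the range of the others. Whether cell content had a part in its high member values was not tested. At the low end, ZT5 replicate 1 was the lowest of the 18 livers in 9 of the 39 members, against 7.99% of all genes. Its Kupffer cell (290.68), sinusoidal endothelial (249.89) and stellate cell (280.26) sums were the highest of the 18. The part of cell content in its low member values was not tested either.

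A second peak within the day was tested with the 12 h term. The limma fit called 0 members at an adjusted P-value below 0.05, against 0.872% of all genes, and 12 (30.8%) at an unadjusted one, against 12.6%. The smallest adjusted P-values were 0.0579 for Atf6b and 0.0848 for Trib3. With times 4 h apart and 1 day sampled, a 12 h wave rests on 3 times a cycle.

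Other genes of the ER pathway were taken from lists of 133, of which 131 were measured. The time of day test called 46 (35.1%, against 26.3% of all genes), the 24 h term 64 (48.9%, against 37.0%), JTK 34 (26%, against 14.1%) and the 12 h term 1 (0.763%, against 0.872%). Of the 64, 50 peaked between ZT12 and ZT20, which is 38.2% of the 131 against 12.8% of all genes, and 14 at other times. By list, the time of day test called 14 of 31 other chaperones and isomerases (45.2%), 12 of 24 genes of the translocon and signal peptidase and 6 of 11 of the oligosaccharyltransferase (54.5%), against 26.3% of all genes. It called 6 of 31 other degradation factors (19.4%) and 8 of 34 other signalling genes (23.5%), under or near the share of all genes. In the same order of lists, the 24 h term called 58.1%, 66.7%, 63.6%, 45.2% and 26.5%, against 37.0% of all genes. JTK called 32.3%, 41.7%, 45.5%, 16.1% and 11.8%, against 14.1%. The median 24 h amplitudes of all these lists, 0.12 to 0.19, lay near the 0.16 of all genes.

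The 6 of smallest P-value were named by rule. Srprb, a subunit of the receptor that docks ribosomes at the ER, was at 22.6, 26.1 and 27.8 at ZT1, 16.6, 17.0 and 19.1 at ZT5, 25.2, 23.3 and 22.8 at ZT9, 34.1, 32.8 and 37.6 at ZT13, 36.9, 32.6 and 36.5 at ZT17, and 20.7, 23.2 and 22.2 at ZT21, with ZT13 and ZT17 above all other livers. Ube2g2, the ubiquitin-conjugating enzyme of degradation and the only one of the 131 with a called 12 h term (adjusted P-value 0.0253, limma), was at 26.4, 25.97 and 28.2 at ZT1, 19.6, 17.4 and 18.4 at ZT5, 23.0, 17.7 and 22.2 at ZT9, 55.9, 46.5 and 35.9 at ZT13, 38.9, 36.3 and 40.9 at ZT17, and 27.4, 23.2 and 27.5 at ZT21. In it too the ZT13 and ZT17 livers were above all others. Mcfd2, a cargo receptor subunit of the secretory route, was 1.88-fold higher at ZT17 than at ZT5 (adjusted P-value 5.59e-05, limma), and Serp1, which stabilizes membrane proteins at the translocon, 1.995-fold (0.000152). Ubxn4, which ties VCP to the ER, was 1.67-fold higher at ZT17 than at ZT5 (0.000374), and Tmx2, a thioredoxin-related membrane protein, 1.48-fold higher at ZT17 than at ZT9 (0.000774). In Mcfd2, Serp1 and Ubxn4 the ZT17 livers were above all others, and in Tmx2 they overlapped those of ZT21.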

How the data were processed

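RNA of 18 livers was sequenced by the authors, whose processing notes name CASAVA 1.8.2, cutadapt and RSEM 1.2.20 on GRCm38. The authors normalized RSEM's estimated counts with limma, and the deposited table holds a normalized signal on a linear scale, 1 column per liver, with 0.5 reads added. From the lowest value of each liver the estimated reads were worked out. The offset sets a floor of 0.0208 to 0.0478, and 2 genes at the floor in every liver were left out.

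Groups came from the labelled zeitgeber time. Replicate pairs of 1 time differed by more than sampling noise (mean chi-square 6.63 to 50.1 over genes with at least 10 reads). Values were taken as log2(value + 1) and fitted over all 14449 genes with limma 3.58.1 (R 4.3.3), with a moderated F test of the 6 means, contrasts of neighbouring times, and a fit of 24 h and 12 h terms. JTK was written again in Python 3.11.15 (numpy 2.4.6, scipy 1.17.1, pandas 2.3.3) with 18 cosine orders of 20, 24 and 28 h and the exact null. All P-values were adjusted by Benjamini–Hochberg over all genes, at 0.05, and describe the spread between 3 mice per time. The scripts were tested on simulated data.

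Values in every liver are given for Hspa5, Xbp1, Atf4, Atf6, Ern1, Eif2ak3, Ddit3, Ppp1r15a and the 12 other members of smallest P-value for time of day, and the 6 other pathway genes of smallest P-value are named. The members and lists were chosen with earlier results of these data known. Coordinates are from GENCODE on GRCm38. Alternatives covered the pseudocount, a filter on means, scalings, limma's prior, JTK's null and orders, CircaN's cosine curve, and leaving out each liver. Of the other marker lists, 7 of 7 stellate, 5 of 6 cholangiocyte, 3 of 6 T cell and 3 of 6 neutrophil genes were in the table. Of these, 0, 1, 0 and 1 passed the time of day test (26.3% of all genes) and 2, 3, 0 and 1 the 24 h test (37.0%).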

Additional observations from a re-analysis of the deposited data

How the results depend on the processing

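Of the 26 members called for time of day, 19 kept the call under every alternative and without each liver, as did 23 of the 26 with a 24 h term. Of the 25 step changes called, 9 kept the call throughout and none changed sign. Leaving out each liver gave 22 to 26 members for time of day, 23 to 27 for the 24 h term, 0 to 1 for the 12 h term and 10 to 18 for JTK. For the steps it gave 3 to 11 from ZT1 to ZT5, 0 to 2 from ZT5 to ZT9, 7 to 10 from ZT9 to ZT13, 0 to 3 from ZT13 to ZT17, 0 to 7 from ZT17 to ZT21 and 0 to 0 from ZT21 to ZT1. The other alternatives gave 24 to 28 members for time of day, 25 to 28 for the 24 h term and 14 to 22 for JTK. With only genes of a mean of at least 1, the 12 h term was called in 1 member, and the steps from ZT1 to ZT5 and from ZT5 to ZT9 in 11 and 2. With limma's trend and robust prior, these were 2, 13 and 2, and the step from ZT13 to ZT17 had 5. A pseudocount of 0.1 gave 0 from ZT5 to ZT9 and 1 from ZT13 to ZT17, where upper quartile scaling gave 4 and total scaling 0. Total scaling shifted values by 0.054 to 0.097 (log2) at ZT5 and by -0.098 to -0.035 at ZT17. It thus narrows the difference between these times relative to the deposited scaling. Upper quartile scaling shifted them by -0.015 to 0.007 at ZT5 and 0.004 to 0.013 at ZT17. The cause of the differences between settings was not tested. No paired analysis was made, because each liver came from a different mouse. The labels carry no replicate numbers, which were given here in accession order only. Depth limits Chac1, Derl3 and Trib3, whose lowest values rested on 4, 12 and 14 estimated reads.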

Other observations

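Within each time, the livers of a ZT also differed together. After the mean of its ZT was taken from each log2 value, the deviations of Hspa5 over the 18 livers had a correlation of 0.92 with those of Syvn1 and of Manf, 0.88 with Hyou1, 0.80 with Creld2, 0.75 with Pdia4, and 0.71 with Sel1l and Hsp90b1. These 7 of 38 members reached 0.7, against 0.436% of all genes. The median over the members was 0.33, against 0.01 over all genes. The lowest were Ppp1r15a at -0.47 and Atf4 at -0.36. The values share libraries, scaling and depth, and ZT17 replicate 1 holds the highest value of many of these genes, so they are given as a description only.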
